A study of Mus musculus with 5 samples.

Results

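Elastic fibres give lung, artery and skin their recoil, and the genes described here encode elastin and 9 proteins that scaffold, guide or link it. The 10 genes were taken by name from the deposited counts: Eln, Fbn1, Fbn2, Mfap2, Mfap4, Mfap5, Fbln5, Efemp2, Emilin1 and Ltbp4, out of 55335 counted gene IDs. All 10 matched 1 ID each in GENCODE M21 and all 10 passed the filter on low counts, which left 16380 genes tested. The series grew primary mouse lung fibroblasts, the matrix-making cells of the lung, in culture. It compared a control group given vehicle with a group labelled TGFB1, given TGF-β1 at 5 ng/mL for 24 h. There were 2 control libraries and 3 TGF-β1 libraries of polyA RNA. The labels state neither the strain, age and sex of the mice nor whether each library had its own animal or its own dish, so p-values reflect only how much these 5 libraries vary.

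An elastic fibre has a core of crosslinked elastin laid on a sheath of microfibrils. Fibrillins, the products of Fbn1 and Fbn2, polymerise into the microfibrils, and the small glycoproteins of Mfap2 and Mfap5 (MAGP-1 and MAGP-2) decorate them. Fibulin-4 (Efemp2) and fibulin-5 (Fbln5) carry tropoelastin, the soluble monomer, to the microfibril and to the lysyl oxidases that crosslink it, with latent TGF-β binding protein 4 (Ltbp4) guiding fibulin-5. Most lung elastin is laid down around and soon after birth, chiefly by myofibroblasts and smooth muscle cells, and TGF-β is a well-known inducer of elastin in cultured fibroblasts.

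The libraries held 34283288 to 43163967 counts. Levels below are CPM, counts scaled to library size with TMM factors that correct for differences in RNA composition. A log2 fold change sets TGF-β1 over control, and gene p-values come from edgeR's quasi-likelihood test with Benjamini-Hochberg adjustment over all tested genes. TGF-β1 replicate 3 stood apart from the other two of its group, with a chi-square statistic per degree of freedom of 8.47 and 8.41 against 4.06 between replicates 1 and 2, and 145 to 160 between groups. The cultures had fibroblast markers at high level, with Col1a1 at 10220.0 ± 316 CPM in the controls (SD, n = 2), although Lum, a fibroblast proteoglycan, was at 0.559 ± 0.084 CPM. Summed over 10 fibroblast markers the level was 26151 and 27161 CPM in the controls and 33272 to 33538 CPM with TGF-β1. The members were divided, with 4 called higher, Col1a1 among them, and 6 lower, among them Pdgfra, Tcf21, Dcn and Thy1 with log2 fold changes of −2.02, −2.16, −1.90 and −0.93. Summed over 12 smooth muscle and pericyte markers the level was 11638 and 11973 CPM in the controls and 11517 to 11604 CPM with TGF-β1, chiefly Acta2 and Tagln. Of the 11 tested, 2 were called higher, Tagln by 0.34 and Cspg4 by 3.47 on the log2 scale, and 6 lower, among them Acta2 with a log2 fold change of −0.12 and Myh11 with −0.64. Over 12 mesothelial markers the sum was 1609 and 1704 CPM in the controls and 287 to 311 CPM with TGF-β1, and 10 of 12 were called lower. Over 12 macrophage and leukocyte markers it was 2476 and 2559 CPM against 1501 to 1533 CPM, 8 of 10 tested were called lower, and Cd3e had no counts. Ptprc, the pan-leukocyte marker, was called higher, with a log2 fold change of 0.29. These counts of markers stand beside 21.3% of all tested genes called higher and 23.2% called lower. The 10 endothelial markers summed to 6.26 to 7.89 CPM and the 11 epithelial markers to 3.59 to 5.97 CPM over the 5 libraries. Egfl7 (endothelial) and Csf1r (macrophage) are uncertain, as their exons overlap Agpat2 and Hmgxb3 on the opposite strand. The epithelial markers Sftpc, Sftpb, Sftpa1, Nkx2-1 and Scgb1a1 had 0 counts in every library. The part of these shifts in the markers in the results below was not tested, and in these bulk libraries fewer cells of a type and less RNA per cell cannot be told apart.

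With TGF-β1, 7 of the 10 genes were called higher, 2 were called lower and 1 did not pass. Over all tested genes 44.5% were called, 21.3% higher and 23.2% lower, so a call by itself is common in this comparison. The calls over all genes were 47.9% higher with TMM scaling and 32.1% higher with library totals alone. By size the genes stood far apart: Eln rose 29.4-fold, 3 genes rose 1.88-fold to 2.11-fold (Ltbp4, Mfap4 and Fbn1), Emilin1 rose 1.48-fold, and Mfap5 and Efemp2 rose by less than that. Fbln5 and Fbn2 fell by 0.96 and 1.63 on the log2 scale. Rises of at least 2-fold that also passed the test were found in 3.19% of tested genes, and here in Eln and Ltbp4. Falls of that size were found in 7.74%, and here in Fbn2. The median log2 fold change was 0.44 over the 10 genes and 1.06e-05 over all tested genes. The TGF-β1 libraries lay outside the range of the controls for each of the 10 genes, above it for 7 and below it for 3. That was so for 64.6% of all tested genes, above for 31.6% and below for 33%.

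**Figure D1:**
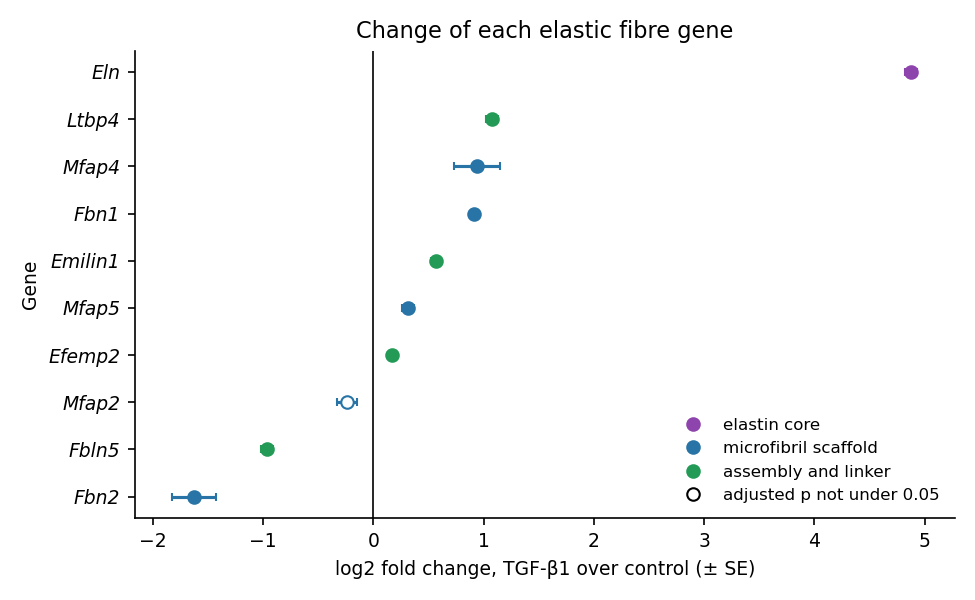
Each point is the log2 fold change of 1 gene, TGF-β1 over control, with its standard error (SE) as a bar. Colours give the role of the protein and the open point marks the gene that did not pass. Eln lies at 4.88, and the other 9 genes lie between −1.63 and 1.08.

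Of the 10 genes, Eln had the largest fold change. Eln encodes tropoelastin (ENSMUSG00000029675, chromosome 5, 134702593 to 134747323 of GRCm38, minus strand). It stood at 13.9 and 12.2 CPM in control 1 and 2 and at 376, 391 and 380.2 CPM in TGF-β1 replicates 1, 2 and 3. Both controls were low and the 3 TGF-β1 libraries were high, with no overlap. In raw reads this is 496 and 512 counts against 14707 to 16447. The mean went from 13.1 ± 1.24 (SD, n = 2) to 382 ± 8.18 CPM (SD, n = 3), a log2 fold change of 4.88 (SE 0.058, adjusted p = 4.97e-11 by edgeR). Among the 10928 tested genes with a mean of at least 5 CPM over all libraries, Eln was at place 2 by size of increase. Among all 16380 tested genes it was at place 37. A spread of 9.52% of the mean in the controls and 2.14% with TGF-β1 is small beside a change of this size.

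**Figure D2:**
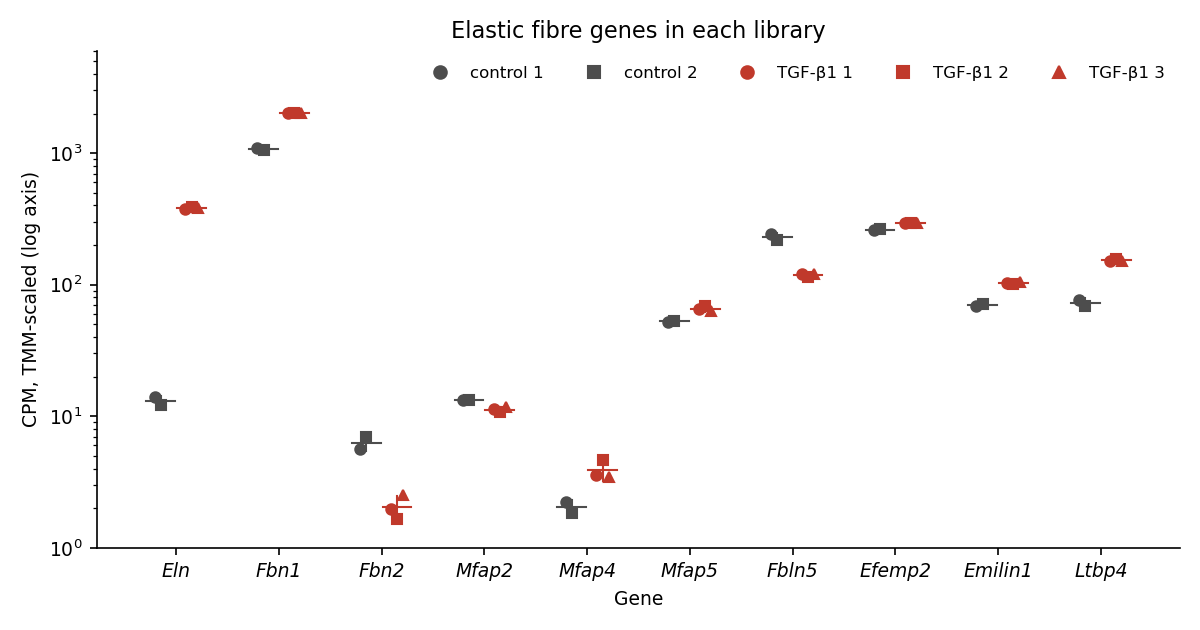
CPM of each of the 10 genes on a log axis, with 1 point per library (grey control, red TGF-β1). Short lines are group means and vertical lines are SD. Eln moves from 12.2 to 13.9 CPM up to between 376 and 391 CPM, and Fbln5 and Fbn2 move down.

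The 2 fibrillin genes moved in opposite directions. Fbn1 encodes fibrillin-1, the main microfibril protein of adult tissue (ENSMUSG00000027204, chromosome 2, 125300594 to 125507993, minus strand). Its level was 1094 and 1049 CPM in the controls and 2021, 2002 and 2019 CPM with TGF-β1. The groups were well apart, and the TGF-β1 libraries had a coefficient of variation of 0.535%. Fbn1 rose by a log2 fold change of 0.91 (SE 0.023, adjusted p = 4.35e-09), or 1.88-fold. Fbn2 encodes fibrillin-2, best known from embryonic and fetal microfibrils (ENSMUSG00000024598, chromosome 18, 58008623 to 58210487, minus strand). It was at 5.67 and 6.94 CPM in the controls and at 1.96, 1.67 and 2.51 CPM with TGF-β1, from 202 and 292 counts against 70 to 97. Every TGF-β1 library lay below both controls, and Fbn2 fell by 1.63 on the log2 scale (SE 0.20, adjusted p = 0.00015). The log2 ratio of Fbn1 to Fbn2 was 7.58 and 7.23 in the controls and 9.97, 10.19 and 9.62 with TGF-β1, a difference of 2.52.

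Of the 3 microfibril-associated genes, Mfap5 and Mfap4 were called higher and Mfap2 did not pass. Mfap5, encoding MAGP-2, a small glycoprotein that binds fibrillins (ENSMUSG00000030116, chromosome 6, 122505845 to 122529290, plus strand), stood at 52.0 and 53.1 CPM in the controls. With TGF-β1 it stood at 65.0, 68.4 and 62.8 CPM, above both controls in each library. This was a rise of 0.32 on the log2 scale (SE 0.053, adjusted p = 0.0010). Mfap2, encoding the related MAGP-1 (ENSMUSG00000060572, chromosome 4, 141010418 to 141015984, plus strand), was at 13.3 and 13.2 CPM in the controls and at 11.3, 10.7 and 11.7 CPM with TGF-β1. All 3 TGF-β1 libraries were below the controls, but the log2 fold change of −0.24 did not pass (SE 0.092, adjusted p = 0.0598). It passed without TGF-β1 replicate 3 (−0.27, adjusted p = 0.0477) and with library totals (−0.34, adjusted p = 0.0137). Mfap4, encoding a fibrinogen-domain protein that binds elastin and fibrillin (ENSMUSG00000042436, chromosome 11, 61485431 to 61488900, plus strand), was scarce, with 78 and 79 counts in the controls and 133 to 197 with TGF-β1. Its level was 2.22 and 1.85 CPM in the controls and 3.58, 4.69 and 3.44 CPM with TGF-β1, so that replicate 2 was the highest. The rise of 0.94 (SE 0.21, adjusted p = 0.00529) was lost without control 2 (0.82, adjusted p = 0.0521). Mfap4 is also uncertain because 89 bases of its exons overlap Mapk7, a more abundant kinase gene on the opposite strand, and no source used here states the strand setting of the counting. Mapk7 itself was at 27.9 ± 2.08 CPM in the controls and 24.3 ± 1.93 CPM with TGF-β1 (log2 fold change −0.20, adjusted p = 0.0849).

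Among the assembly and linker genes, the 2 fibulins that bind tropoelastin went different ways. Fbln5 encodes fibulin-5, which tethers tropoelastin to microfibrils and cells (ENSMUSG00000021186, chromosome 12, 101746565 to 101819055, minus strand). It stood at 244 and 218 CPM in the controls and at 120.5, 114 and 121 CPM with TGF-β1. The 3 TGF-β1 libraries were close to each other and well below both controls. Fbln5 fell by 0.96 on the log2 scale (SE 0.051, adjusted p = 5.28e-07). Efemp2 encodes fibulin-4, which brings lysyl oxidase to tropoelastin (ENSMUSG00000024909, chromosome 19, 5473954 to 5482517, plus strand). Its level hardly differed in size, at 260.5 and 263 CPM in the controls and 296, 295 and 292 CPM with TGF-β1. Because its replicates were tight, the log2 fold change of 0.17 passed (SE 0.028, adjusted p = 0.00098), and with library totals it was 0.07 and did not (adjusted p = 0.0748). The log2 ratio of Fbln5 to Efemp2 went from −0.10 and −0.27 in the controls to −1.30, −1.38 and −1.27 with TGF-β1.

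Ltbp4 and Emilin1 rose together. Ltbp4 encodes a latent TGF-β binding protein that is also needed for fibulin-5 to assemble on fibres (ENSMUSG00000040488, chromosome 7, 27305136 to 27337692, minus strand). It stood at 77.1 and 68.5 CPM in the controls and at 152, 156 and 153 CPM with TGF-β1. No control library reached the TGF-β1 range, and the log2 fold change was 1.08 (SE 0.053, adjusted p = 3.05e-07), or 2.11-fold. Emilin1 encodes EMILIN-1, a glycoprotein at the interface of elastin and microfibrils (ENSMUSG00000029163, chromosome 5, 30913402 to 30921277, plus strand). It was at 68.4 and 70.8 CPM in the controls and at 102, 102 and 105 CPM with TGF-β1, again with no overlap. Its log2 fold change was 0.57 (SE 0.043, adjusted p = 5.46e-06).

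Promoter sequences are shown for these 2 linker genes that rose and for Fbln5, which fell, so that their letters can be set beside the changes. Each is the 250 bases before a RefSeq start site of GRCm38.p6, 5′ to 3′ on the strand of the gene. Where RefSeq lists several starts the window nearest the 5′ end of the GENCODE gene was taken. By the GENCODE spans given above, the Fbln5 window lies upstream of the gene, the Ltbp4 window crosses its 5′ end and the Emilin1 window begins inside it. Windows were found for 6 of the 10 genes, and those without an entry were Eln, Fbn2, Mfap4 and Mfap5. Capitals mark CAGAC or its reverse complement GTCTG, the core letters of a SMAD binding element, SMADs being the transcription factors that TGF-β receptors activate.
Emilin1, chr5:30913536-30913785, plus strand: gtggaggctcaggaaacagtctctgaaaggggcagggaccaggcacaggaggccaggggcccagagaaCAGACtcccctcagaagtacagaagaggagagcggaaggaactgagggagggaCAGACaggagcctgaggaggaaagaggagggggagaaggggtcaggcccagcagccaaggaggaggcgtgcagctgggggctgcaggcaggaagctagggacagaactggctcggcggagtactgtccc
Ltbp4, chr7:27337613-27337862, minus strand: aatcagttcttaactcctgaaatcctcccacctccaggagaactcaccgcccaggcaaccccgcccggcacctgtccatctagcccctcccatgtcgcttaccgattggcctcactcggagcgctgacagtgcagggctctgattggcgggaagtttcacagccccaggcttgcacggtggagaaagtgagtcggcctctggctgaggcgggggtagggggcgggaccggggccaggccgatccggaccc
Fbln5, chr12:101819120-101819369, minus strand: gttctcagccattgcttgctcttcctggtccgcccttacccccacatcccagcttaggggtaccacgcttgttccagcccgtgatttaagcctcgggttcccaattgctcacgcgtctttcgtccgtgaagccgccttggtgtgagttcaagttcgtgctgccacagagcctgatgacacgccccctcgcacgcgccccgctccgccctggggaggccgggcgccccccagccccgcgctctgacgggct
Emilin1 held 2 matches to CAGAC on either strand, and Ltbp4 and Fbln5 held 0. Of the other windows, Efemp2 held 2, Mfap2 held 1 and Fbn1 held 0. Among 32817 RefSeq promoter windows of this length, 42.2% held at least 1. The AP-1 letters TGANTCA (6.75% of windows) and TATAAA (12.4%), searched on both strands, were in 0 of the 6 windows. GGAATG, the TEAD letters (12.6%), was once in Mfap2 only, and no match overlapped another. These matches are a description of letters in a short window and say nothing of binding.

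Set against its scaffold, Eln changed by far more than any of the genes around it. The log2 ratio of Eln to the mean of the 5 scaffold genes (Fbn1, Fbn2, Mfap2, Mfap4 and Mfap5, on log2 CPM with a prior count of 2) was −0.84 and −1.03 in the controls. With TGF-β1 it was 3.88, 3.91 and 3.84, a difference of 4.81 between group means. This score over chosen genes is given without a test. The 5 scaffold genes count equally in it, whatever their level, and moved in both directions. Their log2 fold changes were 0.91 (Fbn1), 0.94 (Mfap4), 0.32 (Mfap5), −0.24 (Mfap2) and −1.63 (Fbn2), which partly cancel in the mean. Against Fbn1 and Fbn2 alone the difference was 5.22, and against the scaffold genes with a mean of at least 5 CPM it was 4.54. Gene by gene, the log2 ratio of Eln to Fbn1 was −6.29 and −6.42 in the controls and −2.43, −2.35 and −2.41 with TGF-β1, a difference of 3.96. To Fbln5 it went from −4.12 and −4.16 to 1.64, 1.79 and 1.65, so that Eln passed from far below fibulin-5 in read share to above it. Ltbp4 was the closest of the 9 in its change, and the log2 ratio of Eln to it still moved from −2.46 and −2.49 to 1.31, 1.33 and 1.32. The remaining ratios of Eln differed between groups by 3.96 (Mfap4) to 6.48 (Fbn2). The control and TGF-β1 libraries were apart in all 12 pairs compared (Eln with each of the other 9 genes, and 3 pairs of relatives). Of these, 9 share Eln, which changed more than any of the others, so they are not separate results. No share over all gene pairs was computed, and 64.6% of single tested genes were apart between the groups. Over 5 libraries an exact permutation test, two-sided, gives p = 0.1 for each pair and 0.1 after adjustment over the 12, which is the smallest p this design allows.

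**Figure D3:**
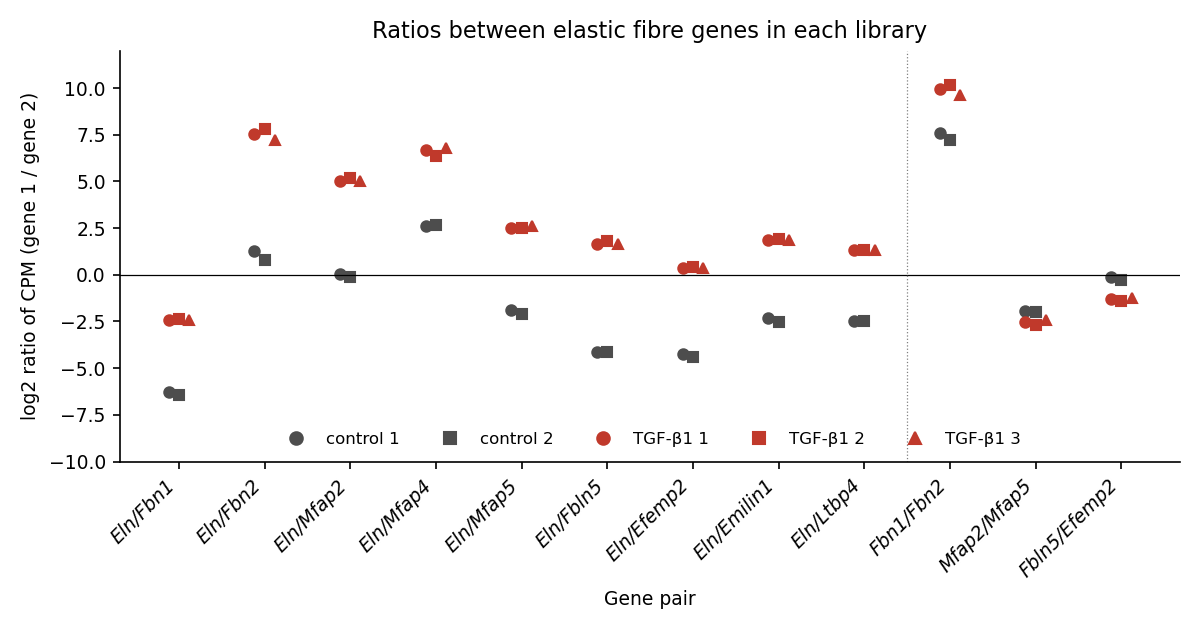
Log2 ratio of CPM between 2 genes in each library, with 1 point per library (grey control, red TGF-β1). The 9 pairs to the left of the dotted line set Eln over another gene, and the 3 to the right set relatives side by side. Eln over Mfap5, Fbln5, Efemp2, Emilin1 and Ltbp4 changes from below 0 in the controls to above 0 with TGF-β1.

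The order of the genes by level changed chiefly through Eln and Fbln5. To compare genes with each other, CPM was divided by the summed length of annotated exons in kilobases (kb). In the controls Fbn1 was highest at 88.3 ± 2.62 CPM per kb (SD, n = 2), followed by Efemp2 at 69.1 ± 0.498 and Fbln5 at 33.4 ± 2.59. Mfap5 at 14.6 ± 0.213 and Emilin1 at 14.1 ± 0.339 came next and were within the sum of their SDs. Ltbp4 at 11.3 ± 0.940 and Mfap2 at 10.97 ± 0.0707 overlapped. Eln was eighth at 1.61 ± 0.153 CPM per kb, above Mfap4 at 1.06 ± 0.134 and Fbn2 at 0.477 ± 0.0679.

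With TGF-β1, Fbn1 stayed first at 166 ± 0.890 CPM per kb (SD, n = 3) and Efemp2 second at 77.7 ± 0.529, and Eln was the third at 47.2 ± 1.01. Ltbp4 followed at 23.7 ± 0.345 and Emilin1 at 20.9 ± 0.360. Mfap5 at 18.2 ± 0.795 and Fbln5 at 17.1 ± 0.621 overlapped, and Mfap2, Mfap4 and Fbn2 were last at 9.29 ± 0.408, 2.03 ± 0.356 and 0.155 ± 0.0323. Per kb there were 52.4 and 57.5 times as many Fbn1 as Eln reads in the controls and 3.41 to 3.59 times as many with TGF-β1. Fibulin-5 reads per kb were 20.5 and 21.03 times those of Eln in the controls and 0.340 to 0.376 times with TGF-β1. Eln made up 0.691% and 0.623% of the summed level of the 10 genes per kb in the controls, and 12.1% to 12.6% with TGF-β1. These ratios and shares depend on the length used. The annotated exons of Eln sum to 8098 bases and its longest coding transcript has 3853. The longest coding transcript of each gene was also used, a length chosen after seeing the data. The places of Eln were then again 8 and 3, with shares of 1.08% and 19.4%, and Efemp2 rather than Fbn1 was first in the controls. The ratios of Fbn1 and Fbln5 to Eln were then smaller in both groups. Eln, Fbn1 and Fbln5 stood at 3.39, 89.5 and 39.7 CPM per kb in the controls and at 99.25, 168 and 20.3 with TGF-β1.

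**Figure D4:**
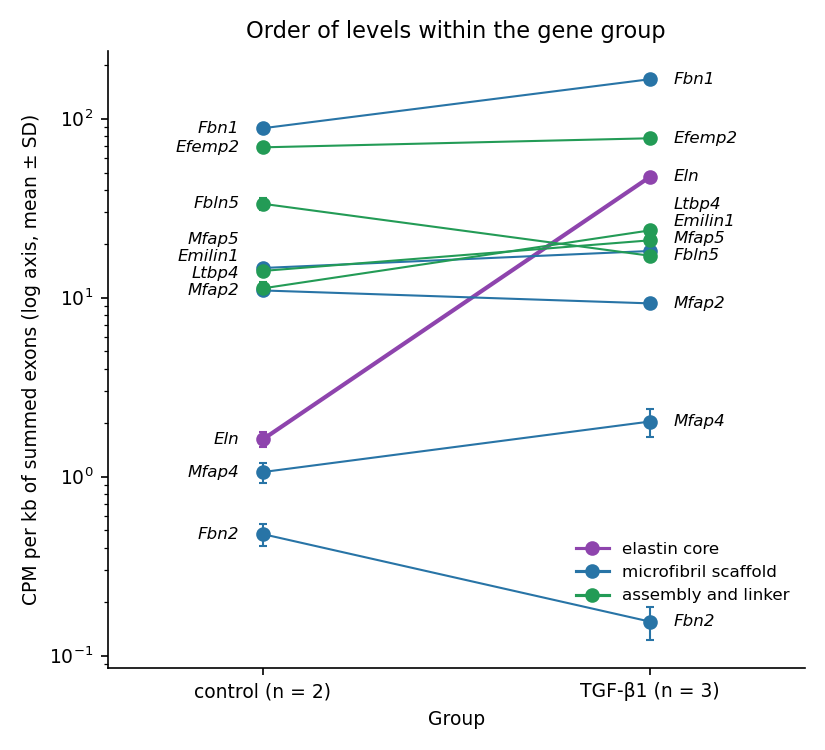
Mean level per kb of summed exons, with SD, of each of the 10 genes in controls (n = 2) and with TGF-β1 (n = 3), on a log axis. The thick line is Eln, which goes from place 8 to place 3, and Fbln5 crosses below Ltbp4, Emilin1 and Mfap5.

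The genes whose pattern over the 5 libraries lay nearest to that of Eln were named by a distance rule, the Euclidean distance in log2 CPM relative to the mean of the controls. Out of 10924 candidates with a mean of at least 5 CPM these were Il11 (distance 0.208), Cdh6 (0.523), C1qtnf3 (0.555), Aldh1a3 (0.776) and Rph3a (0.906). Il11, encoding interleukin-11, stood at 2.05 and 1.95 CPM in the controls and at 64.9, 65.1 and 63.5 CPM with TGF-β1. The other 4 had control means of 0.495 to 1.37 CPM. No other elastic fibre gene was among the 5. The distance rests mainly on the size of the rise, so this follows from the rule. The largest other rises on the log2 scale were 1.08 within the group (Ltbp4) and 1.81 in the wider lists below (Adamts6). All 5 named genes reached the mean of 5 CPM through their TGF-β1 libraries.

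Of 53 other genes of the elastic fibre pathway, 47 were tested: 19 were called higher, 21 lower and 7 did not pass, with a median log2 fold change of −0.02. The shares, 40.4% and 44.7% of those tested, stand beside 21.3% and 23.2% of all tested genes. The shares were not matched for level, and the part of level in them was not tested. Calls were of unlike size. Bgn, at 5743 CPM in the controls, passed with a log2 fold change of 0.18, and Efemp1, at 31.1 CPM, with −2.93. The lists were drawn up by role and describe different steps, and they did not move as 1 group.

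Among crosslinking genes, 4 of 6 were higher and 0 lower. Lox, the lysyl oxidase that oxidises lysines of elastin and collagen, was at 1259 and 1229 CPM in the controls and at 2778, 2808 and 2912 CPM with TGF-β1. The TGF-β1 libraries were all well above both controls, and the log2 fold change was 1.19 (SE 0.025, adjusted p = 1.37e-09). Loxl2, another lysyl oxidase, rose by 1.06 on the log2 scale (SE 0.022, adjusted p = 1.29e-09). Loxl1, the family member most tied to elastin upkeep and named here after its value was seen, was at 623 ± 18.8 CPM in the controls and 615 ± 10.6 CPM with TGF-β1 (log2 fold change −0.02, adjusted p = 0.668). With library totals Loxl1 and the copper transporter gene Atp7a were called lower, at −0.12 and −0.30 (adjusted p = 0.00649 and 0.011). Loxl4 and Loxl3 were also higher, and Loxl3 is uncertain, as its exons overlap Htra2 on the opposite strand.

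The relatives of the fibulins and linkers were divided. Of 5 other fibulin genes 1 was higher and 2 lower. Fbln2, encoding fibulin-2, stood at 5302 ± 108 CPM in the controls and 8245 ± 45.4 CPM with TGF-β1, a log2 fold change of 0.64. Efemp1, encoding fibulin-3, stood at 31.1 ± 0.00902 and 4.07 ± 0.643 CPM, a log2 fold change of −2.93. Fbln1, encoding fibulin-1, was lower with a log2 fold change of −0.65. Both tested genes of the emilin and multimerin list, Emilin2 and the scarce Mmrn1, were lower, and Emilin2 went from 74.4 ± 1.86 to 36.5 ± 0.746 CPM (log2 fold change −1.03), opposite to Emilin1. All 3 other latent TGF-β binding protein genes were higher. Ltbp2, whose product binds fibulin-5 and fibrillin-1, was at 1426 ± 60.4 CPM in the controls and 2936 ± 30.02 CPM with TGF-β1 (a rise of 1.04 on the log2 scale), and Ltbp1 rose by 0.43. The call for Ltbp3 is uncertain, and its value is left out.

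Genes that process or bind fibrillins gave 2 higher and 4 lower of 8 tested. Adamts6, a metalloproteinase, went up by 1.81 on the log2 scale, to 49.3 ± 2.34 CPM against 14.1 ± 0.113 in the controls. Furin, the proprotein convertase that trims fibrillin-1, went up by 0.76, to 282 ± 9.02 CPM against 166 ± 0.775. Thsd4, encoding ADAMTSL6, which binds fibrillin-1 microfibrils, stood at 36.2 and 34.9 CPM in the controls and 5.32, 4.43 and 4.40 CPM with TGF-β1. That was a log2 fold change of −2.91 (SE 0.098, adjusted p = 2.32e-08), the largest fall in this list, and Adamtsl5 fell by 0.71. Adamtsl4 and Papln were the other two called lower, and Papln did not pass without control 1 (adjusted p = 0.0543). Of 5 microfibril-binding proteoglycan genes 2 were higher and 2 lower: Vcan (versican, 0.71) and Bgn (biglycan, 0.18) against Dcn (decorin, −1.90) and Fmod (fibromodulin, −0.61), all as log2 fold changes. With library totals Bgn still passed, at 0.08.

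Genes of the elastin receptor complex and of elastin turnover also divided. The 3 receptor complex genes Glb1, Neu1 and Ctsa were lower, Ctsa from 271 ± 8.76 to 215 ± 0.883 CPM (log2 fold change −0.33) and Neu1 by 0.28, with Glb1 uncertain for an exon overlap with Tmppe. Fkbp10, a collagen and tropoelastin chaperone of the endoplasmic reticulum, was at 400.2 ± 3.63 CPM in the controls and 621 ± 9.77 CPM with TGF-β1 (a rise of 0.63 on the log2 scale). Of 8 tested proteases that can cut elastin, 5 were higher and 3 lower. Mmp9 (gelatinase B) rose by 1.80 on the log2 scale, to 22.1 ± 1.49 CPM against 6.35 ± 0.201, and Mmp14 by 0.65, with Ctss, Ctsl and Mmp2 also called higher. Ctsk (cathepsin K) and Mmp12 (macrophage elastase) had log2 fold changes of −0.98 and −0.64, and Ctsb was the other gene called lower. Mmp12 is mainly a macrophage gene. Of the 10 tested macrophage and leukocyte markers 8 were called lower and 1, Ptprc, higher. Over all tested genes 23.2% were called lower and 21.3% higher. The part of these markers in the values of Mmp12 and the other proteases was not tested. Elane, encoding neutrophil elastase, and Mmp7 had 0 counts in every library. Among the 6 protease inhibitor genes 1 was higher and 5 lower. Timp1, at 553 ± 15.2 CPM in the controls and 1377 ± 26.0 CPM with TGF-β1, rose by 1.32 on the log2 scale. Serping1 and Slpi, serine protease inhibitors, had log2 fold changes of −1.04 and −0.88. Timp2, Cst3 and Timp3 were also called lower, Timp3 with a log2 fold change of only −0.09. Timp3 did not pass without control 1 (adjusted p = 0.0653).

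**Figure D5:**
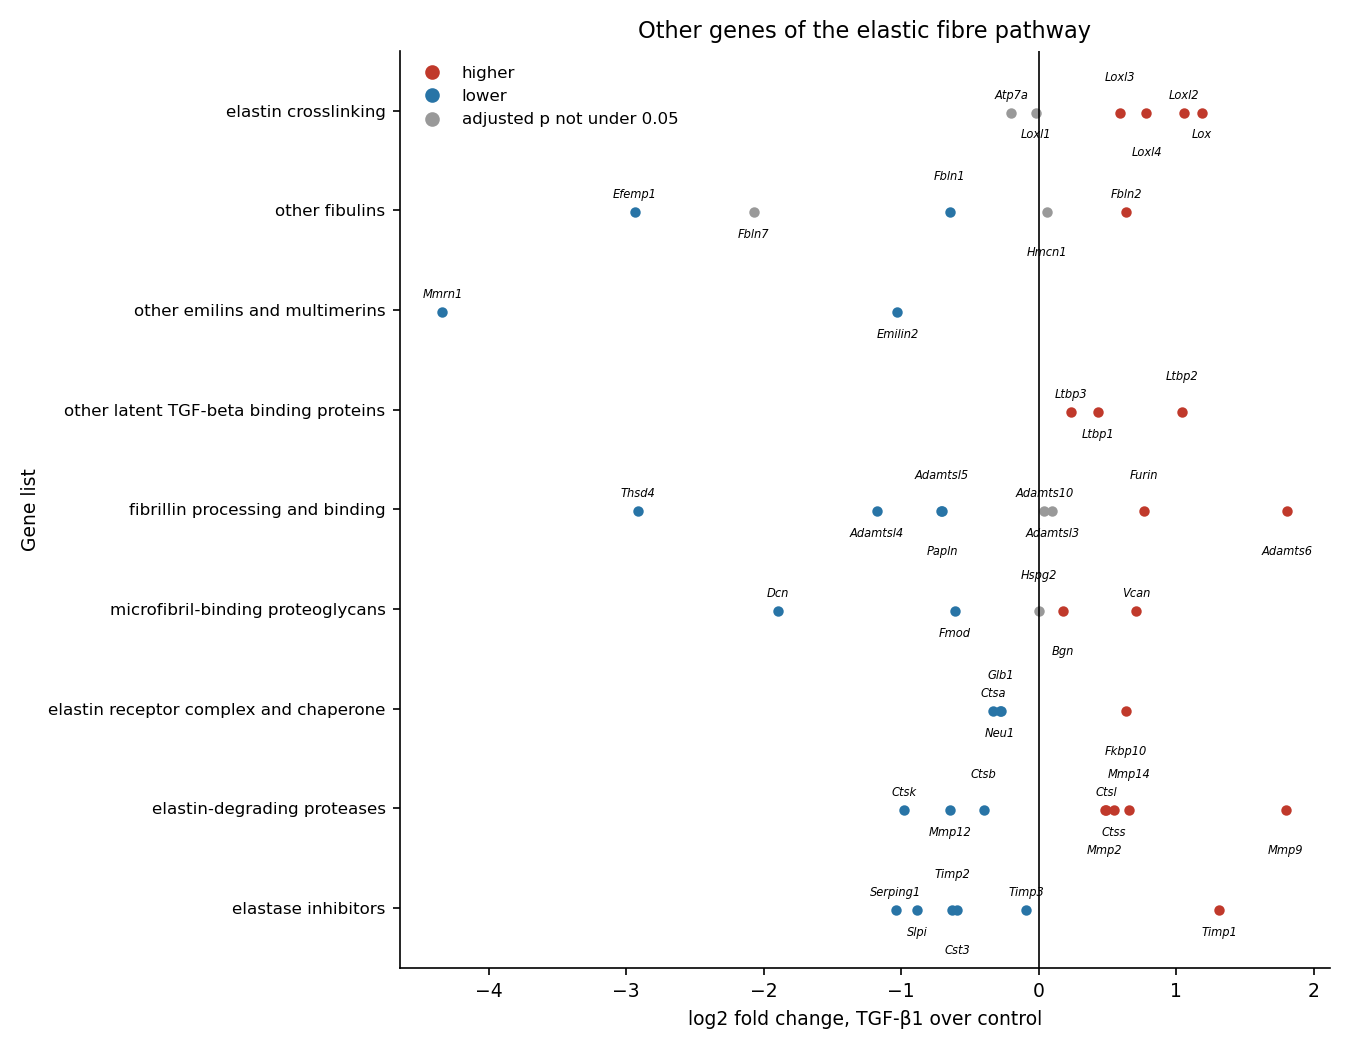
Log2 fold change, TGF-β1 over control, of the 47 tested pathway genes outside the 10, in rows by list. Red points were called higher (19), blue lower (21) and grey did not pass (7). Crosslinking and latent TGF-β binding protein genes lie at or to the right of 0 apart from Loxl1 and Atp7a, and the inhibitors lie to the left apart from Timp1.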

How the data were processed

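Messenger RNA of 2 control and 3 TGF-β1 libraries was measured. Libraries were strand-specific and made from RNAiso Plus extracts, per the labels' protocols. The authors deposited whole-number counts per Ensembl gene, unscaled. The submitters' processing notes name STAR 2.5.3a, StringTie 1.3.1c and mm10, with no roles. No source used here states the counting tool, its strand setting or the annotation.

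Columns were matched to samples by title. Symbols, positions and exon lengths came from GENCODE M21 (GRCm38), which matched 55154 of 55335 IDs. The other 181 stayed in the tests. Genes were filtered with filterByExpr, scaled with TMM (factors 0.972 to 1.05) and compared by group with the quasi-likelihood F test of edgeR, two-sided, at an adjusted p of 0.05. SE is the absolute log2 fold change over the square root of F. The fit was also run on simulated counts in which few genes changed. That differs from these data, so that run does not bear on the choice of scaling. Log2 CPM used a prior count of 2. A gene is called uncertain where an overlapping gene has over 0.1 of its counts.

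The 10 genes, the lists and the tests were chosen with earlier results of these data known. From each other list, up to 2 rises and 2 falls were named, by size, among genes that passed with a mean of at least 5 CPM. Genes outside this rule are named to account for counts or were picked after their values were seen. Alternatives were RLE and upper-quartile factors, library totals, 2 filters, DESeq2, limma-voom, a replicate block, and leaving out each library. The fits used edgeR 4.0.16, DESeq2 1.42.0 and limma 3.58.1 under R 4.3.3. Other steps used pandas 2.3.3, numpy 2.4.6 and Python 3.11.15, and figures used matplotlib 3.10.9.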

Additional observations from a re-analysis of the deposited data

How the results depend on the processing

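Over 13 alternative fits each of the 10 elastic fibre genes kept its direction, and 7 kept their side of the threshold in every fit. The exceptions were Mfap2, which passed with library totals and without TGF-β1 replicate 3, Mfap4, which did not pass without control 2, and Efemp2, which did not pass with library totals. Eln ranged from 4.78 to 4.97 on the log2 scale. Loxl1 ranged from −0.0465 to 0.0158 when 1 library was left out, with its sign turned without control 1 or TGF-β1 replicate 2. Leaving out 1 library gave 6 to 7 genes higher and 2 to 3 lower. The difference in the ratio of Eln to its scaffold ranged from 4.72 to 4.91 when 1 library was left out. It moved to 5.22 with Fbn1 and Fbn2 alone and to 4.54 with scaffold genes of at least 5 CPM. The labels do not state whether same-numbered libraries were paired. Their deviations from the group means correlated at 0.016. The deviations of the 2 controls mirror each other, so this value cannot decide on pairing. With the replicate number as a block, 7 genes were higher and 2 lower, 19 and 21 of the wider lists, and 7265 genes in all against 7287. No control has the number 3, so TGF-β1 replicate 3 did not add to the group difference in this fit. Its log2 fold changes were close to those without that library, such as −1.79 and −1.80 for Fbn2. With 1 control left, its spread was taken to equal that of the TGF-β1 libraries. Depth limits Fbn2 and Mfap4 most, at 70 to 292 counts a library.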
